A study of Mus musculus with 3 samples.

Results

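The genes described here are 10 neighbours on mouse chromosome 10, Grin3b, Cnn2, Abca7, Hmha1, Sbno2, Efna2, Gamt, Apc2, Pcsk4 and Reep6, out of 23238 gene symbols in the count data. They lie within 366 kb, at chr10:79970715-80336441 of GRCm38, with 14 other listed genes between them. They were selected by name after their GelMA-PSS ratios to the controls had been seen in these same libraries, so their high ratios in GelMA-PSS are what chose them and are given as a description, with no test. All 10 passed the filter on low counts (at least 1 CPM, a count scaled to library size, in 1 library or more), as did 13169 of the 23238 symbols.

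The 10 genes share a place and not a family. Together they code for an NMDA receptor subunit, actin- and microtubule-binding proteins, a lipid transporter, a regulator of small GTPases, a co-regulator of transcription, a ligand of Eph receptors, a creatine enzyme, a protease and a membrane-shaping protein of the endoplasmic reticulum. Several are best known outside muscle: Pcsk4 in spermatogenic cells, Reep6 in rod photoreceptors and testis, Apc2 and Grin3b in neurons, and Hmha1 in leukocytes. Genes that stand close together on a chromosome can share open chromatin and regulatory elements, and they can also be active independently.

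The cells were c2c12, mouse myoblasts of an immortalized line that form myotubes once serum is withdrawn. All 3 groups had received myogenic induction medium with 2% horse serum and, per the study's text, were taken after 2 days. They differed in the substrate: tissue culture plate (TCP), GelMA (15% methacrylated gelatin), and GelMA-PSS (15% methacrylated gelatin with 1% PSS, poly(sodium 4-styrenesulfonate), a sulfonated polymer used as a mimic of heparin). Each substrate has 1 library from 1 cell line, so no value below has a replicate check, no p-value was computed, and differences between cultures cannot be told apart from differences between substrates.

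The libraries held 119799095 counts on TCP, 87071144 on GelMA and 192171443 on GelMA-PSS. Levels are given as CPM scaled with TMM factors, a correction for library composition, and differences as log2(CPM + 1), a scale on which changes of low genes look smaller than they are. Intervals at 95% cover counting error only. They would be too narrow had each pair of reads been counted as separate reads, and the sources used here do not say. In each library more genes had 2 counts than 1 count (543 against 426 on TCP, 866 against 651 on GelMA and 480 against 441 on GelMA-PSS), so this doubt applies to every interval below. Ratios between libraries can vary with transcript length and GC content, so ratios were also corrected for both by loess fits. For example, the correction moved the long transcript of Apc (12811 bases) from -1.17 to -0.40 against the mean of the controls. It moved the short transcript of Uqcr11 (445 bases) from 0.51 to -0.05. Uncorrected differences of long and short transcripts are to be read with this in mind. Corrected values are given mainly where they change a call or a median. The muscle identity of the libraries was checked with 10 myoblast and myotube markers. All 10 were expressed, their summed CPM was 28423 on TCP, 21021 on GelMA and 18033 on GelMA-PSS, and desmin (Des) stood at 3299, 2863 and 3154 CPM. Embryonic myosin, Myh3, carried much of the fall in this sum, and without it the other 9 summed to 18241, 14665 and 14996 CPM. The sum hides a mix of directions, as 2 of the 10 markers were above both controls on GelMA-PSS and 4 were below both. The 2 above were Myf5, at 13.9, 19.5 and 36.5 CPM, and Myod1, at 94.3, 104.6 and 119.2 CPM. In such bulk RNA, fewer cells of a type and less RNA per cell cannot be told apart.

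The promoters of these genes were compared first, because the genes were brought together by position and by a shared pattern over the libraries. Windows of 300 bases, from 250 before to 50 after the annotated start, were taken from RefSeq (GRCm38.p6) for 8 of the 10 genes. RefSeq held 3 windows for Hmha1, 3 for Sbno2 and 4 for Apc2. For these genes only the window nearest the annotated 5′ end of the gene was used, and their other starts were not examined. Windows for Pcsk4 and Reep6 were not analysed here. Shown 5′ to 3′ on the gene's strand, with each CANNTG (the E-box core bound by MyoD-type muscle factors) in capitals, are Hmha1, Grin3b and Apc2, among the genes with the highest ratios, and Cnn2, whose level differed most from the pattern of the others. Their positions are chr10:80016422-80016721 for Hmha1, chr10:79970474-79970773 for Grin3b, chr10:80295706-80296005 for Apc2 and chr10:79988350-79988649 for Cnn2, all on the plus strand.
Hmha1: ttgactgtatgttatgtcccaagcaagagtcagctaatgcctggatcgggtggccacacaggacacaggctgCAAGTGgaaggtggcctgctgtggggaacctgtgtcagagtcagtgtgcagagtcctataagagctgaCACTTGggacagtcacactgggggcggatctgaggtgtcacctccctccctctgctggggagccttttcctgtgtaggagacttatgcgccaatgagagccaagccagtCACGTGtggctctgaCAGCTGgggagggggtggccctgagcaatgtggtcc
Grin3b: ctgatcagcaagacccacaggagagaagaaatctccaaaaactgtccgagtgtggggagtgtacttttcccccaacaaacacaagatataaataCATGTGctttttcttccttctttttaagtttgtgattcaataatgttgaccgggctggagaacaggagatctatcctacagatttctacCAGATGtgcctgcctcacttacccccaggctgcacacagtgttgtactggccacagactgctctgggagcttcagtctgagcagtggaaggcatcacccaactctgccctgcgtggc
Apc2: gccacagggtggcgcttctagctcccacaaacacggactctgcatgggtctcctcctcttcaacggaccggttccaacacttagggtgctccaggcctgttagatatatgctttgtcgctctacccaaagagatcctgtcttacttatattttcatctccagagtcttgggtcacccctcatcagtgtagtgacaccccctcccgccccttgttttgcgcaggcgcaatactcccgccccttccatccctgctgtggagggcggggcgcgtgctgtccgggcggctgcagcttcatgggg
Cnn2: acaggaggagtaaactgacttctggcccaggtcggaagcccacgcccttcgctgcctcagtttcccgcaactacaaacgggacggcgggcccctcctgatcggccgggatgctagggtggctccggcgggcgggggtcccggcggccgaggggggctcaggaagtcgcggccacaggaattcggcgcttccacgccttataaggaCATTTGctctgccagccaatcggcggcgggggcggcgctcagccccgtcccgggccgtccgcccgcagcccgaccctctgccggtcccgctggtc

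The 4 windows were unlike in their letters. The Hmha1 window held 4 CANNTG matches, 1 GGGCGG (the core of the GC box), 1 CCAAT and 4 CpG, whereas the Apc2 window held 0 CANNTG, 4 GGGCGG and 14 CpG. The Grin3b window held 2 CANNTG, 3 CpG and 1 TATAAA, and the Cnn2 window 1 CANNTG, 3 GGGCGG, 1 CCAAT and 33 CpG. Over both strands, CANNTG occurred in 6 of the 8 windows, GGGCGG in 7, CCAAT in 3 and TATAAA in 1. Among all 32851 RefSeq windows of this length, the shares were 72.3%, 35.7%, 37.4% and 13.6%. These shares were not matched for GC content, which had a median of 52.7% over all windows. The 8 windows had between 57.7% and 74.7% GC, apart from Grin3b with 48.3%. The median window overall held 7 CpG, and Efna2 with 31, Abca7 with 19, Sbno2 with 17 and Gamt with 14 lay above it. These matches describe letters within short windows and are neither sites of binding nor causes.

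The members shared an order of levels more than a size of difference. In 9 of the 10 genes the level was highest on GelMA-PSS, intermediate on TCP and lowest on GelMA, an order found in 22.7% of all expressed genes, and Cnn2 was the exception. The level on GelMA-PSS was a median of 4.79 times that on GelMA (range 1.78 to 8.39) and 2.70 times that on TCP (range 1.42 to 3.22). The level on TCP was a median of 1.78 times that on GelMA (range 0.924 to 2.60). All 3 comparisons use the same 3 libraries, so a high GelMA-PSS to GelMA ratio and a low GelMA to TCP ratio both contain the GelMA value. Counting error was at most 8.99%, 6.09% and 10.3% of these folds, and the spread between cultures is unknown.

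**Figure D1:**
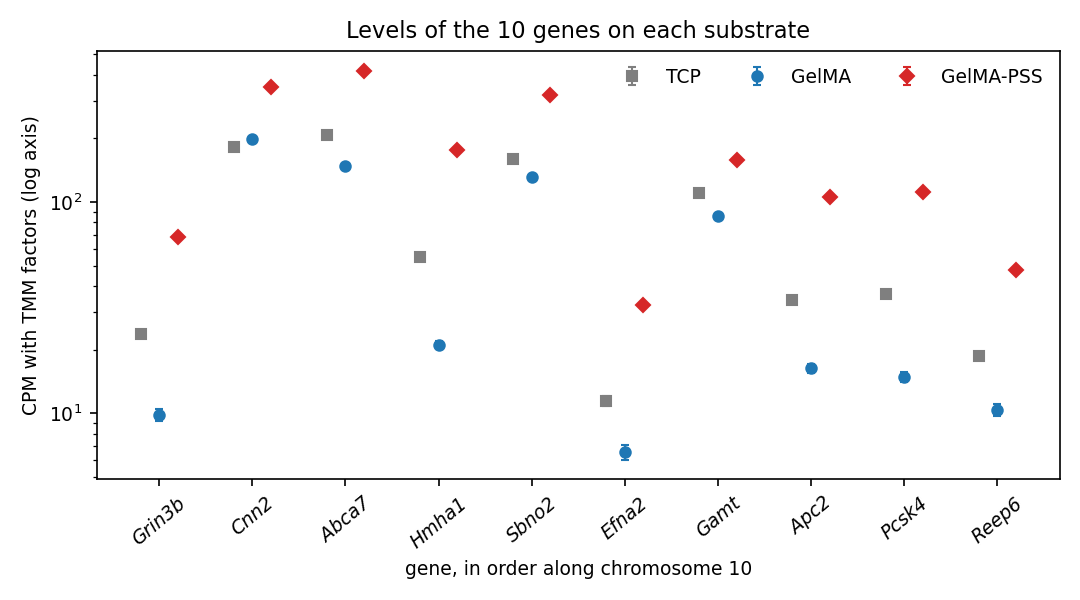
Level of each of the 10 genes in the TCP (grey squares), GelMA (blue circles) and GelMA-PSS (red diamonds) libraries, in CPM with TMM factors on a log axis, with genes in chromosomal order on the x axis. Points are single libraries and bars are Wilson 95% intervals for counting error, mostly smaller than the symbols; the red point is the highest for all 10 genes, and the blue point is the lowest for all but Cnn2.

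Hmha1, now called Arhgap45, codes for a GTPase-activating protein with an F-BAR domain, known as the source of a minor histocompatibility antigen of blood cells. Its 23 exons span chr10:80016653-80031472 on the plus strand. Its counts were 6658 on TCP, 1909 on GelMA and 31938 on GelMA-PSS, or 54.7, 21.0 and 176.3 CPM. The GelMA-PSS level was thus 8.39 times the GelMA level (95% interval 8.01 to 8.79) and 3.22 times the TCP level (3.14 to 3.31), the highest folds of the 10 genes in both comparisons. On the log2(CPM + 1) scale the differences were 3.01 and 1.67, and Hmha1 ranked 12th from the top of the 13169 expressed genes by its difference from the mean of the controls.

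The list of F-BAR GTPase-activating proteins held 6 other genes, of which 5 were expressed. Against both controls, none was past 2-fold higher on GelMA-PSS. Srgap1 was past 2-fold lower against both, at 27.1 CPM on TCP, 18.2 on GelMA and 6.46 on GelMA-PSS. Arhgap29, with the highest CPM of the list, stood at 157, 171 and 205 CPM. The median difference of the list from the mean of the controls was -0.56, against 0.03 over all expressed genes. After correction for length and GC content this median was -0.19, and Srgap1, at -0.77 against GelMA and -1.47 against TCP, was no longer past 2-fold against both.

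Apc2 codes for a relative of the adenomatous polyposis coli protein that binds beta-catenin and microtubules and is known mainly from the nervous system. It has the longest transcript of the 10 genes, at 9173 bases in 15 exons, and lies at chr10:80295977-80318263 on the plus strand. Its counts were 4201 on TCP, 1480 on GelMA and 19104 on GelMA-PSS, or 34.5, 16.3 and 105.5 CPM. The GelMA-PSS level was 6.48 times that on GelMA (6.14 to 6.83) and 3.06 times that on TCP (2.96 to 3.16), with log2 differences of 2.62 and 1.58.

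The related gene Apc, which codes for the scaffold of the beta-catenin destruction complex, was lower on GelMA-PSS before correction for length and GC content. It stood at 103.7 CPM on TCP, 100.6 on GelMA and 44.9 on GelMA-PSS, with log2 differences of -1.15 from GelMA and -1.19 from TCP. Per kb of transcript, Apc was above Apc2 on TCP (8.09 against 3.76 CPM per kb) and below it on GelMA-PSS (3.50 against 11.5 CPM per kb). All 9 genes listed for the APC family and the destruction complex were expressed. Against both controls, 0 were past 2-fold higher on GelMA-PSS, and Apc was past 2-fold lower. Ctnnb1 (beta-catenin), with the highest CPM of the list, stood at 466, 521 and 472 CPM, and the list's median difference from the mean of the controls was -0.16. The lower call of Apc did not hold after correction for length and GC content, which left it at -0.23 against GelMA and -0.56 against TCP. Gsk3b, a kinase of the complex named here for that reason, stood at 97.1, 99.5 and 52.3 CPM. It was past 2-fold lower only after correction, at -1.27 against GelMA and -1.16 against TCP, from -0.91 and -0.88 before it. The correction depends on the transcript chosen for the gene, here of 1750 bases, so this call is uncertain.

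Pcsk4 and Reep6 lie head to head. Pcsk4, at chr10:80321283-80329498 on the minus strand, codes for a proprotein convertase known from sperm, and Reep6, at chr10:80329953-80336441 on the plus strand, for a receptor expression-enhancing protein that shapes endoplasmic reticulum membranes. Only 454 bases separate their annotated starts. Pcsk4 had 4487 counts on TCP, 1348 on GelMA and 20253 on GelMA-PSS, or 36.8, 14.8 and 111.8 CPM, which put GelMA-PSS at 7.54 times GelMA (7.13 to 7.97) and 3.03 times TCP (2.94 to 3.13). Reep6 had 2278, 940 and 8636 counts, or 18.7, 10.3 and 47.7 CPM, which put GelMA-PSS at 4.61 times GelMA (4.31 to 4.93) and 2.55 times TCP (2.43 to 2.67). The 2 genes thus had the same order of libraries, and the counting intervals of their folds did not overlap.

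Their families were not called in either direction. Of 8 other convertases listed, 5 were expressed and 0 were past 2-fold against both controls. Their median difference from the mean of the controls was -0.39, or -0.14 after correction. Furin, which cleaves many precursor proteins in the secretory pathway, stood at 115 CPM on TCP, 140 on GelMA and 96.7 on GelMA-PSS, a value named here after it was seen, and Mbtps1, with the highest CPM, at 131, 164 and 163 CPM. All 5 other REEP genes were expressed and 0 were past 2-fold against both controls, although Reep1 was past 2-fold lower against TCP alone (-1.06). The median difference of the 5 was -0.09, or -0.24 after correction. Reep5, with the highest CPM of them, stood at 324, 239 and 265 CPM.

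Grin3b codes for a glycine-binding NMDA receptor subunit and stands first in the stretch, at chr10:79970715-79977190 on the plus strand. Its counts were 2898 on TCP, 892 on GelMA and 12295 on GelMA-PSS, or 23.8, 9.82 and 67.9 CPM. GelMA-PSS was 6.91 times GelMA (6.46 to 7.41) and 2.85 times TCP (2.74 to 2.97). Its last part overlaps the oppositely oriented Tmem259, with 73 of its 3283 exon bases in common, and whether the counting used strand is not known, so reads from these bases may belong to either gene. The obligatory subunit of NMDA receptors, Grin1, had 73, 37 and 45 counts and did not reach 1 CPM. Of the 6 other subunits only Grin2d did, at 1.95, 1.97 and 1.03 CPM, and the other 5 stayed below 1 CPM in all 3 libraries.

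Efna2 codes for ephrin-A2, a ligand tethered to the cell surface that binds EphA receptors on neighbouring cells. It lies at chr10:80179482-80190010 on the plus strand, with 4 exons. Its counts were 1392 on TCP, 594 on GelMA and 5887 on GelMA-PSS, or 11.4, 6.54 and 32.5 CPM. GelMA-PSS was 4.97 times GelMA (4.57 to 5.42) and 2.84 times TCP (2.68 to 3.02). Among the 7 other ephrins 5 were expressed, and among the 9 EphA receptors 4, with 0 past 2-fold against both controls in either list. Against TCP alone, Epha1 was past 2-fold higher (1.13) and Epha4 past 2-fold lower (-1.12, or -0.85 after correction). Efnb2, the ephrin with the highest CPM, stood at 33.1, 38.5 and 30.7 CPM, and Epha2, the receptor with the highest CPM, at 76.4, 94.1 and 89.3 CPM.

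Abca7 and Sbno2 sat at the 2-fold limit against TCP. Abca7 codes for an ATP-binding cassette transporter that moves phospholipids out of cells, and its 46 exons lie at chr10:79996494-80015572 on the plus strand, 1080 bases before Hmha1. It had 25156 counts on TCP, 13404 on GelMA and 75612 on GelMA-PSS, or 206.6, 147.5 and 417.4 CPM. Sbno2, which codes for a nuclear helicase-like co-regulator known from interleukin-10 and STAT3 responses, lies at chr10:80056992-80105571 on the minus strand. It had 19501, 11943 and 58064 counts, or 160.2, 131.4 and 320.5 CPM. The GelMA-PSS difference from TCP was 1.01 on the log2(CPM + 1) scale for Abca7, just past the limit, and 0.997 for Sbno2, just short of it, so their calls differed although the counting intervals of their folds overlapped. In linear CPM, GelMA-PSS was 2.02 times TCP for Abca7 (1.99 to 2.05) and 2.00 times TCP for Sbno2 (1.97 to 2.03).

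None of the 11 other ABCA transporters, 8 of them expressed, was past 2-fold against both controls. Abca1 was past 2-fold lower against GelMA alone, at -1.35, or -0.56 after correction for length and GC content. The list's median difference from the mean of the controls was -0.49, or -0.09 after correction. Abca2, with the highest CPM, stood at 95.1 CPM on TCP, 82.2 on GelMA and 47.7 on GelMA-PSS. Its log2 differences were -0.77 from GelMA and -0.98 from TCP, or -0.05 and -0.45 after correction. Of the 8 genes listed with Sbno2 for interleukin-10 and STAT3 responses, 7 were expressed and 0 were past 2-fold against both controls. Stat3 stood at 219, 207 and 165 CPM. The close relative Sbno1, named here after its values were seen, stood at 66.2, 75.7 and 45.9 CPM. Its log2 differences of -0.71 from GelMA and -0.52 from TCP became 0.02 and -0.01 after correction.

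Cnn2 and Gamt had the smallest differences. Cnn2 codes for calponin 2, an actin-binding protein of the cytoskeleton, and lies at chr10:79988584-79996062 on the plus strand, 431 bases before Abca7. It had 22232 counts on TCP, 17957 on GelMA and 63747 on GelMA-PSS, or 182.6, 197.6 and 351.9 CPM, and was the sole member with a higher level on GelMA than on TCP. Gamt codes for guanidinoacetate methyltransferase, which makes creatine, and lies at chr10:80258151-80261012 on the minus strand. It had 13474, 7755 and 28552 counts, or 110.7, 85.3 and 157.6 CPM. GelMA-PSS was 1.78 times GelMA (1.75 to 1.81) and 1.93 times TCP (1.90 to 1.96) for Cnn2, and 1.85 times GelMA (1.80 to 1.89) and 1.42 times TCP (1.40 to 1.45) for Gamt.

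The lists of these 2 genes were mixed in direction. Of 5 other calponins and transgelins 4 were expressed and 0 were past 2-fold against both controls. Tagln2 was past 2-fold higher against TCP alone (1.24). Cnn3, with the highest CPM, stood at 1142, 979 and 1088 CPM on TCP, GelMA and GelMA-PSS. Of the 6 other genes of creatine synthesis, transport and phosphorylation, 5 were expressed and 0 were past 2-fold against both controls. Muscle creatine kinase, Ckm, stood at 542, 430 and 380 CPM. Gatm, which makes the substrate of Gamt and is named here after its values were seen, stood at 267, 255 and 335 CPM.

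**Figure D2:**
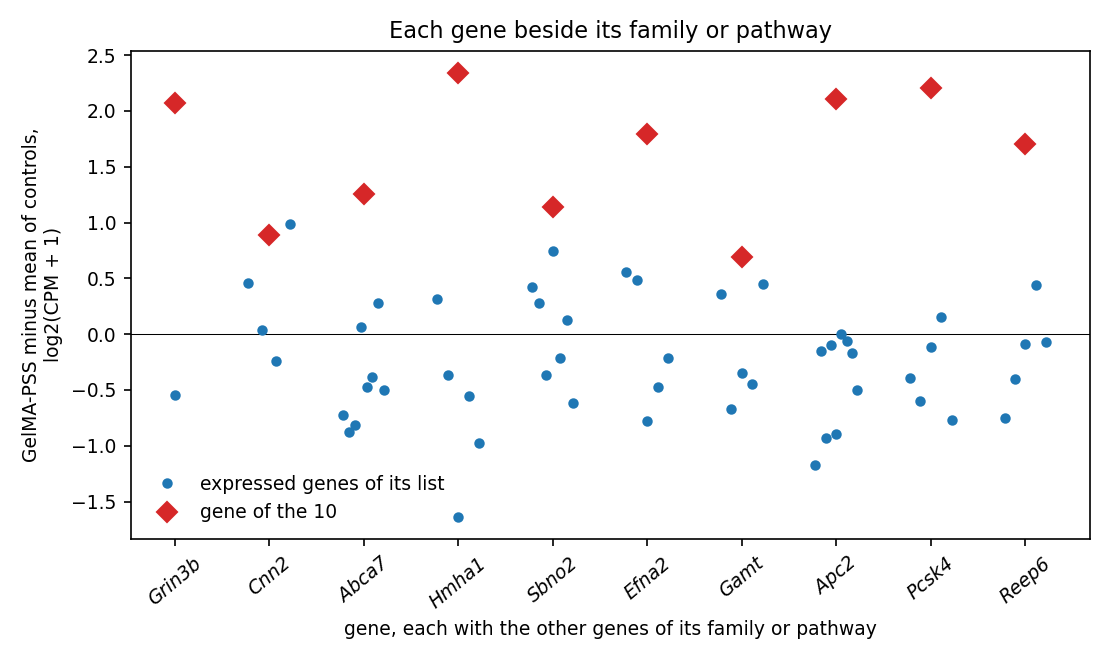
Difference in log2(CPM + 1) of GelMA-PSS from the mean of the 2 controls for each of the 10 genes (red diamonds) and for the expressed genes of its family or pathway list (blue circles, 1 library per substrate, no error bars; Efna2 is shown with the other ephrins). Diamonds lie from 0.69 for Gamt to 2.34 for Hmha1, and each list's median lies between -0.56 and 0.25.

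Counted against the 2-fold limit of the study's methods, 7 of the 10 genes were higher on GelMA-PSS than on both controls: Grin3b, Abca7, Hmha1, Efna2, Apc2, Pcsk4 and Reep6. Over all expressed genes 1.37% met this rule. Against GelMA alone 8 members were past 2-fold, beside 1.77% of all genes, and against TCP alone 7, beside 3.72%. At 1.5-fold the count was 9 of 10, without Gamt, beside 8.08%. These are the contrasts on which the members were chosen, so the shares are background and nothing is read from the counts.

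The members also differed between the controls. Grin3b, Hmha1, Apc2 and Pcsk4 were past 2-fold lower on GelMA than on TCP, beside 0.296% of all genes, which is 39 genes. Their log2 differences were -1.20, -1.34, -1.04 and -1.26, which placed them 20th, 11th, 31st and 14th from the bottom of all expressed genes. Efna2 and Reep6 had -0.72 and -0.80, Abca7 -0.48, Gamt -0.37, Sbno2 -0.28 and Cnn2 0.11. The median of the 10 was -0.76, against -0.01 over all expressed genes. Because this contrast contains the GelMA value that also entered the choice of the members, it is not independent of it.

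**Figure D3:**
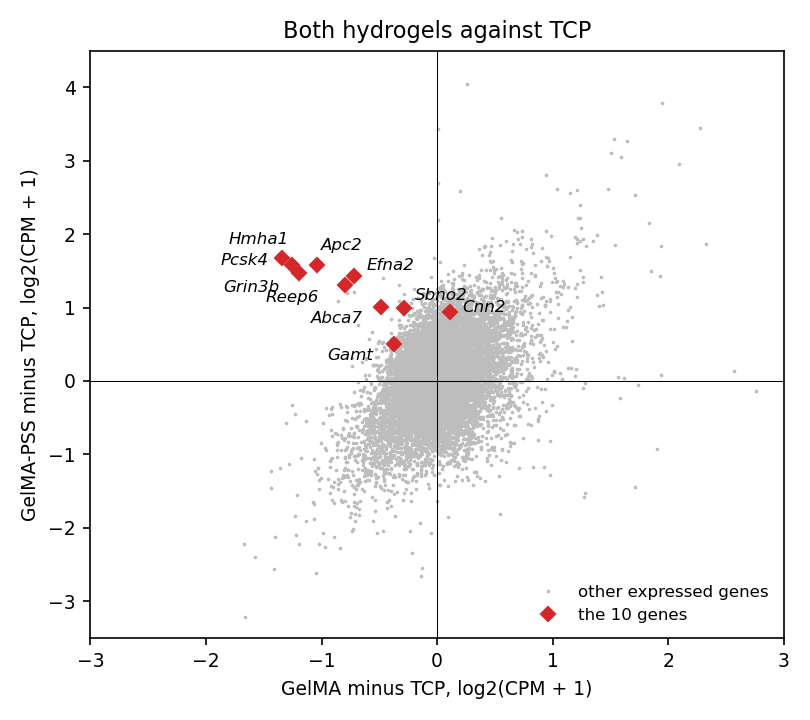
Difference in log2(CPM + 1) of GelMA from TCP (x axis) and of GelMA-PSS from TCP (y axis) for the expressed genes (grey points) and the 10 genes (red diamonds), 1 library per substrate; both axes contain the TCP value, and 5 genes lie outside the axes. All 10 genes lie above 0 on the y axis and 9 lie below 0 on the x axis, with Cnn2 at 0.11.

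Levels between genes were compared per kb of transcript. Gamt was the highest and Apc2 the lowest on each substrate. On TCP the levels ran from 113.0 CPM per kb for Gamt over 74.2 for Cnn2, 33.0 for Sbno2, 31.1 for Abca7, 14.5 for Pcsk4, 14.1 for Hmha1, 8.47 for Reep6, 7.25 for Grin3b and 5.36 for Efna2 to 3.76 for Apc2. Pcsk4 and Hmha1 were the neighbours in this order whose counting intervals overlapped on TCP and on GelMA, and on GelMA those of Efna2 and Grin3b did too. The level of Gamt was 30.1 times that of Apc2 on TCP, 49.1 times on GelMA and 14.0 times on GelMA-PSS. This span rests on 2 genes, with transcripts of 979 bases for Gamt and 9173 for Apc2. Gamt had the smallest difference from the mean of the controls (0.69), and Apc2 had 2.10. The members were chosen on such ratios, so nothing is read from the narrower span on GelMA-PSS. The order depends on which transcript length is used for each gene, which counting error does not cover.

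Levels and differences were set side by side over the stretch. Among the 24 genes from Grin3b to Reep6, the 10 with the lowest GelMA level, between 1.78 and 22.2 CPM per kb, included 7 members and had a median GelMA-PSS difference from TCP of 1.37 on the log2(CPM + 1) scale. The 10 with the highest GelMA level, between 66.8 and 1278 CPM per kb, included 2 members and had a median difference of 0.61. Spearman's rank correlation between GelMA level per kb and the GelMA-PSS difference from TCP was -0.72 over the 24 genes and -0.77 over the 10 members. This describes genes of the same 3 libraries, with shared scaling. The members were chosen for high GelMA-PSS ratios and are unevenly spread over the levels, so nothing is read from these values. Rps15, with 1278 CPM per kb on GelMA, stood apart with a difference of 1.15 from TCP, but ribosomal protein genes have near-identical processed copies and its value is uncertain.

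**Figure D4:**
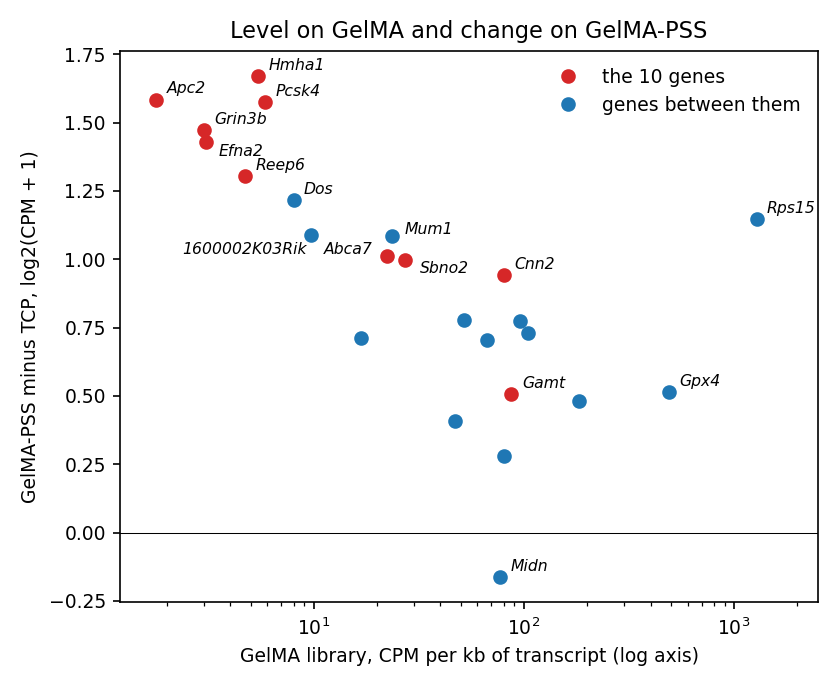
GelMA level in CPM per kb of transcript (x axis, log) against the GelMA-PSS difference from TCP in log2(CPM + 1) (y axis) for the 10 genes (red) and the 14 genes between them (blue), 1 library per substrate and no error bars. Members with low levels, such as Apc2 at 1.78 CPM per kb, lie near the top, and Gamt at 87.2 CPM per kb lies at 0.51.

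The 14 genes between the members shared the direction in weaker form. Of these, 13 were higher on GelMA-PSS than the mean of the controls, as were 52.5% of all expressed genes. The order GelMA-PSS, TCP, GelMA was found in 12, beside 22.7% of all expressed genes. The median difference of the 14 from the mean of the controls was 0.78, against 1.75 for the 10 members. The stretch was picked on values of these same libraries, so these values are a description. After correction for length and GC content the medians were 0.50 and 1.74. Past 2-fold against both controls were Dos, 1600002K03Rik, Mum1 and Rps15, beside 1.37% of all expressed genes. Dos and Mum1 kept this call after correction, beside 0.437% of all genes, while 1600002K03Rik (0.60 against TCP) and Rps15 (0.42 against GelMA) did not. Mum1, which codes for a chromatin-associated protein with a PWWP domain, stood at 78.5 CPM on TCP, 62.4 on GelMA and 167.7 on GelMA-PSS, and Dos at 39.9, 23.8 and 93.9 CPM. 1600002K03Rik had 12.7, 6.58 and 28.1 CPM, and Rps15 had 582, 639 and 1289 CPM.

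The other 10 genes in between were under 2-fold against at least 1 control. Dazap1 and Cirbp, which code for RNA-binding proteins, differed from TCP by 0.78 and 0.71 on the log2 scale, and Ndufs7 and Atp5d, which code for subunits of the respiratory chain and the ATP synthase, by 0.77 and 0.48. Polr2e, a shared subunit of RNA polymerases, differed by 0.73, 2310011J03Rik by 0.71, Gpx4, a glutathione peroxidase that protects membrane lipids, by 0.51, Stk11, the kinase LKB1, by 0.41, and Tmem259 by 0.28. Midn was the exception at -0.16, with 296, 285 and 264 CPM on TCP, GelMA and GelMA-PSS. It lies between Atp5d and Cirbp. After correction Midn was at 0.04 from the mean of the controls, and all 14 genes were then above 0. The corrected median over all expressed genes was 0.002.

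Beyond the ends of the stretch, the 5 nearest expressed genes on each side had a median difference from the mean of the controls of 0.02. On the side of Grin3b, Med16, R3hdm4, Kiss1r and Arid3a lay near or below 0 against both controls, and Wdr18 lay at 0.98 against GelMA and 0.58 against TCP. On the side of Reep6, Adamtsl5, next to it, had 0.42 against GelMA and -0.32 against TCP. Plk5, the next gene, named here after its values were seen, had the pattern of the members: 4167 counts on TCP, 1170 on GelMA and 19852 on GelMA-PSS, or 34.2, 12.9 and 109.6 CPM. Mex3d, Mbd3 and Uqcr11, beyond it, were under 2-fold. Apart from Plk5, 10 of 628 expressed genes elsewhere on chromosome 10 were past 2-fold higher against both controls, while 11 of the 24 genes of the stretch were. As 7 of these 11 are members chosen for such ratios, the second count restates the choice.

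**Figure D5:**
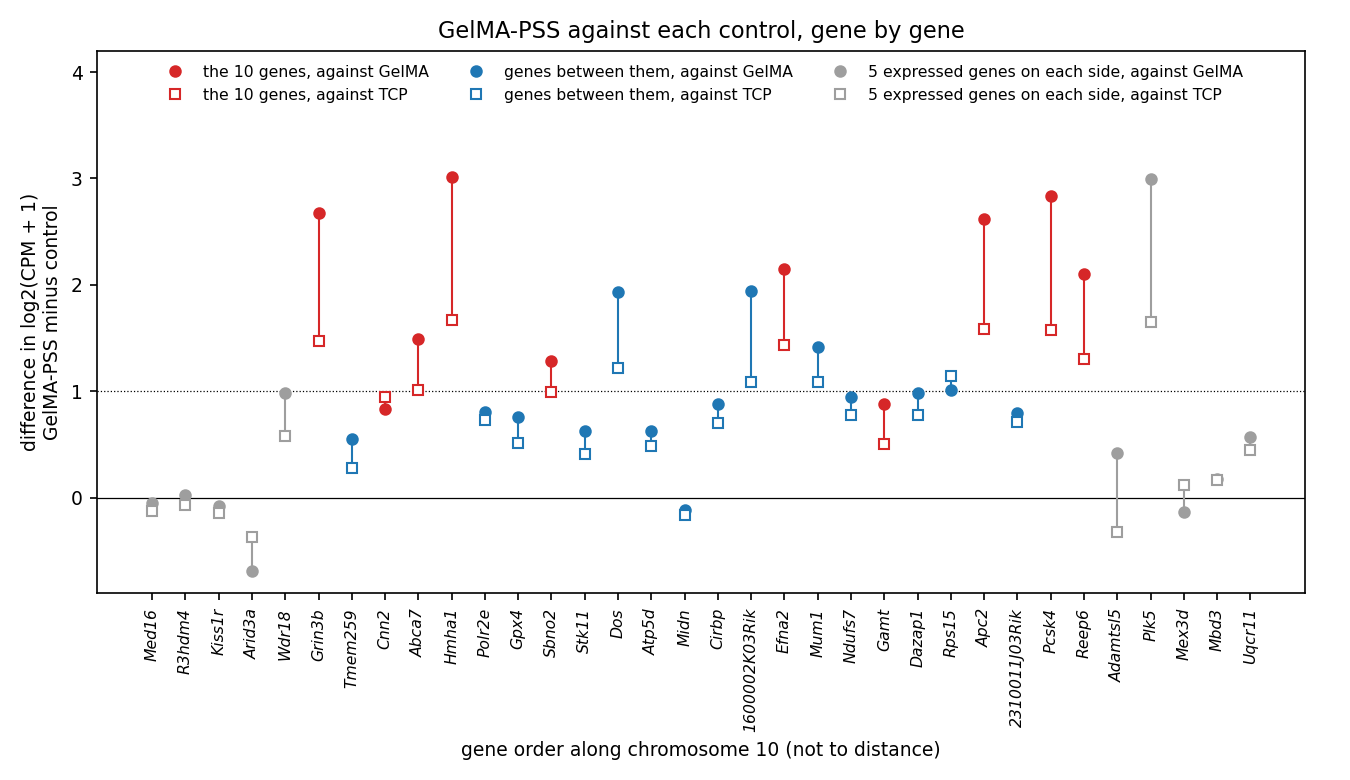
Difference in log2(CPM + 1) of GelMA-PSS from GelMA (filled circles) and from TCP (open squares) for the 24 genes from Grin3b to Reep6 and the 5 nearest expressed genes on each side, in chromosomal order and not to distance, 1 library per substrate; the dotted line marks 2-fold. Members (red) reach 3.01 for Hmha1, the genes between them (blue) lie from -0.11 for Midn to 1.94 for 1600002K03Rik against GelMA, and Plk5 stands out among the outer genes (grey).

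The 10 genes have a high GC content in common with their surroundings. The median over their transcripts was 59.6%, against 59.0% for the 14 genes between them, 59.9% for the 10 nearest outside and 50.4% over all expressed genes, and 9 of the 10, all but Cnn2, lay above the 90th percentile. Their median transcript length, 2911 bases, equalled that of all expressed genes. Correction of the ratios for transcript length and GC content left the median difference from the mean of the controls at 1.74, moved Apc2 from 2.10 to 2.87 and Abca7 from 1.25 to 1.77, and moved Gamt from 0.69 to 0.32. After correction, 8 members were past 2-fold against both controls, with Sbno2 added, beside 0.437% of all genes.

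The expressed genes outside the neighbourhood whose pattern was most like the median of the 10 were named by Euclidean distance over the 3 libraries, on log2(CPM + 1) centred on each gene's own mean. They were Bc1, a brain-enriched noncoding RNA, at a distance of 0.12, Myl12b, a regulatory light chain of nonmuscle myosin, at 0.24, Reps2, an endocytic adaptor, at 0.39, and the MHC class I genes H2-Q2 and H2-Q1 at 0.49 and 0.52. Bc1 stood at 14.4 CPM on TCP, 8.0 on GelMA and 34.4 on GelMA-PSS, and Myl12b at 330, 238 and 873 CPM. These distances use uncorrected values. After correction Bc1, with a transcript of 168 bases, lay at 1.21 against GelMA and 0.47 against TCP. It was then no longer past 2-fold against both, nor was H2-Q2, at 1.14 and 0.92. Myl12b, Reps2 and H2-Q1 remained past 2-fold against both. Reads of H2-Q2 and H2-Q1 can be shared with near-identical relatives, so their values are uncertain. Among the members themselves, Reep6 at 0.03 and Efna2 at 0.07 were nearest to the median pattern, and Gamt at 0.90 and Cnn2 at 0.94 were farthest. With 3 libraries such likeness rests on 3 values per gene.

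Markers of other cell types in which members are best known were measured in the same libraries. Of 10 leukocyte markers 2 reached 1 CPM, with summed levels of the 10 of 3.01, 2.80 and 2.41 CPM on TCP, GelMA and GelMA-PSS. These 2 were Cd68, at 1.53, 1.71 and 1.37 CPM, and Itgam, at 1.03, 0.649 and 0.375 CPM. Ptprc (CD45), which defines leukocytes, had 0, 0 and 4 counts. None of 6 germ cell markers reached 1 CPM, with a summed level of at most 0.17 CPM. The part of leukocytes or germ cells in the levels of Hmha1 and Pcsk4 was not tested.

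Some neuronal markers differed between substrates. The summed level over 10 neuronal genes was 112 CPM on TCP, 171 on GelMA and 349 on GelMA-PSS, and 5 of the 10 were expressed. Stmn2, a tubulin-binding protein, stood at 33.0, 49.0 and 157.7 CPM and Nefl, the light neurofilament chain, at 4.67, 26.5 and 61.0 CPM, both past 2-fold higher on GelMA-PSS than on both controls, and with Tubb3 they carried the sum. Snap25 went the other way, at 3.62, 3.77 and 1.95 CPM. Map2 stood at 23.2, 30.9 and 29.2 CPM. Its log2 difference of GelMA-PSS from GelMA was -0.08 before correction and 0.32 after it. Syp, Syt1, Rbfox3, Elavl3 and Elavl4, which define neurons, were below 1 CPM in all 3 libraries. The sum was higher on GelMA than on TCP, and 9 of the 10 members were lower on GelMA than on TCP. The part of these markers in the levels of Grin3b and Apc2 was not tested. Of the muscle markers, embryonic myosin Myh3 was past 2-fold lower on GelMA-PSS, at 10182, 6355 and 3037 CPM, but after correction it lay at -0.61 against GelMA and -1.41 against TCP, and its part in the result was likewise not tested.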

How the data were processed

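RNA-seq was analysed from c2c12 cells on 3 substrates with 1 library each. For each library the authors deposited unnormalized counts by gene symbol, and the study's methods describe 101 bp strand-specific paired-end reads from a TruSeq kit, whereas the labels name a SMARTER kit. The submitters' processing notes name TopHat, edgeR, mm10 and hg19 without their roles. Lines that shared a symbol (35 symbols) were summed. Counts were scaled to CPM with TMM factors (1.02, 1.04 and 0.943 for TCP, GelMA and GelMA-PSS; edgeR 4.0.16, R 4.3.3), so that 3 counts correspond to 0.0246, 0.0330 and 0.0166 CPM. The FPKM values of the study's methods were not used here. Genes that reached 1 CPM in any library were compared on log2(CPM + 1), and a call is a 2-fold difference in the same direction from both controls. No test was possible with 1 library per substrate.

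Positions, GC content and transcript lengths were taken from the GENCODE vM21 annotation (GRCm38), with 22197 symbols matched directly, 649 through older symbols and 392 unmatched. To correct the ratios, a loess fit on length and then another on GC content were subtracted (span 0.3, statsmodels 0.14.6). Intervals of CPM are Wilson intervals and those of folds are exact conditional intervals (scipy 1.17.1), both at 95%. Calculations used Python 3.11.15 and were tested on simulated data. The genes and gene lists were chosen with earlier results of these data known. Named are all 10 genes, the genes between them and the 5 nearest expressed genes on each side. From each list come the gene with the highest summed CPM and any past 2-fold against both controls. The 5 genes most like the median pattern are also named. Only some exceptions are marked. Those not marked, named with their values known, are Des, Myf5, Myod1, Grin1, Ptprc, Cd68, Itgam and the neuronal markers other than Stmn2 and Nefl. Abca1, Reep1, Epha1, Epha4 and Tagln2 were also named with their values known. The result of another marker list is not reported here.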

Additional observations from a re-analysis of the deposited data

How the results depend on the processing

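With 1 library per substrate, no library could be left out. No paired analysis was possible because each group has 1 library. The settings tried were median-of-ratios size factors, total counts only, pseudocounts of 0.25 and 5 CPM, no filter, a CPM of 1 or more in all 3 libraries, correction for transcript length and GC content, and a threshold of 1.5-fold. Members past 2-fold against both controls numbered 6 with total counts only and with a pseudocount of 5 CPM, where Abca7 was lost, and 8 after the correction, where Sbno2 was gained. With a pseudocount of 5 CPM the members lower on GelMA than on TCP fell from 4 to 2, Hmha1 and Pcsk4. The median difference from the mean of the controls then went from 1.75 to 1.46 and that of GelMA from TCP from -0.76 to -0.57, as a larger pseudocount shrinks the ratios of genes with low counts. No member changed direction against the mean of the controls after the correction or with median-of-ratios size factors. GelMA, with the lowest total count, gave the least precise values, and no comparison has a second culture.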
